A study of Mus musculus with 18 samples.

Results

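Itgal, Itgax and Itgb3 encode 3 subunits of the integrins that leukocytes and osteoclasts use for adhesion. They were followed here in RAW264.7, an established mouse line of macrophage-like cells, by taking every row of the authors' deposited comparison table that carries 1 of these 3 symbols and names 2 of the 6 labelled groups. This gave 3 genes of 5390 with an assigned symbol, in 5 of 7315 transcript or locus entries, and 40 of 34824 rows. Poly(A)-selected RNA had been sequenced from 18 samples, 3 in each group. Parental RAW264.7 made up 2 groups, without treatment and with 100 ng/mL doxycycline. Construct cells (p2080 in the labels) made up 4 groups and carry a lentiviral pINDUCER20 vector that expresses mouse CITED1, a co-regulator of transcription, when doxycycline is present. Their groups were no treatment, doxycycline, 200 U/mL murine interferon-gamma, and doxycycline together with interferon-gamma. The labels do not say whether the construct line is 1 clone, how long these samples were treated, or whether the 3 samples of each group were grown separately. If they were not, the q-values measure only the spread between these samples, which may be technical. Parental cells given interferon-gamma were not analysed here.

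The table holds 1 fold, 1 summed FPKM (fragments scaled by transcript length and library size) and 1 q-value (the authors' p-value after adjustment) per pair of groups. It has no value per sample, so no SD, n or depth can be attached to a level, and a level below is the authors' group value rebuilt from a fold and a total, reading that total as the sum of both groups. A pair with a row is named called, and every row has a fold of 2 or more and a q not above 0.05. A missing row does not show that a gene was unchanged, and in bulk RNA fewer cells with a transcript and less transcript per cell cannot be told apart.

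Integrins are heterodimers of 1 alpha and 1 beta chain that switch between a bent, low-affinity and an extended, high-affinity form. Itgal encodes the alpha L chain (CD11a), which with the beta 2 chain forms LFA-1, the receptor for ICAM proteins on other cells. Itgax encodes the alpha X chain (CD11c), which with beta 2 forms complement receptor 4 and is widely used to mark dendritic cells and some macrophages. Itgb3 encodes the beta 3 chain, which pairs with alpha V in the vitronectin receptor that osteoclasts use to attach to bone.

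All 5 entries have a transcript identifier that GENCODE M21 (mouse GRCm38) annotates as protein-coding under the same symbol. Positions are those of that annotation, because the authors' own build is not given in the sources used here. Itgal lies on the plus strand at chr7:127296260-127335138 and Itgax on the same strand of that chromosome at chr7:128129547-128150657. Itgb3 lies at chr11:104608000-104670476, also on the plus strand. The Itgax entry is ENSMUST00000033053 (30 exons) and the Itgb3 entry ENSMUST00000021028 (15 exons). Itgal has 3 entries, ENSMUST00000106306 (Itgal-201), ENSMUST00000117762 (Itgal-202) and ENSMUST00000120857 (Itgal-204), out of 6 annotated transcripts.

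The Itgal entries are shown first as sequence, because the values below depend on how fragments were divided among them. Itgal-201 and Itgal-202 share 5191 exonic bases. Only 4 bases belong to Itgal-201 and not to Itgal-202, and 31 to Itgal-202 and not to Itgal-201. Within the coding part they differ by 3 bases, shown in capitals, at the joint of exons 18 and 19. Each run gives the 30 coding bases on either side (GRCm38, plus strand, chr7:127317334-127321924 with the intron removed), 5′ to 3′.
Itgal-201: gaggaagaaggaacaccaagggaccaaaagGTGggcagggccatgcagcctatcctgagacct
Itgal-202: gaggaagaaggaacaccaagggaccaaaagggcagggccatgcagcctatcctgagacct

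Itgal-204 parts from the others after exon 30. It reads on past the end of that exon and stops there, with 276 coding bases of its own, while Itgal-201 and Itgal-202 join to exon 31, which holds their last 156 coding bases and codes for the cytoplasmic tail of the alpha L chain. In the runs below the lower-case letters are the last 30 shared bases. The capitals are the next 60 coding bases of each entry, which come from different genomic positions and begin with GT in both. The runs cover chr7:127330210-127333511 with the intron removed for Itgal-201, and chr7:127330210-127330299 for Itgal-204.
Itgal-201: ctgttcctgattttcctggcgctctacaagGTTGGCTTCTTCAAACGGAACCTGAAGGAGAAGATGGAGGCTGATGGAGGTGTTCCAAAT
Itgal-204: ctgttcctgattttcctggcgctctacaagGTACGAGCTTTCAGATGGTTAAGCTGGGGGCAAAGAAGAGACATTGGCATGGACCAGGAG

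All 3 Itgal entries have 3481 exonic bases in common, 67.0% of Itgal-201, 66.7% of Itgal-202 and 76.8% of Itgal-204. The division between Itgal-201 and Itgal-202 is therefore uncertain, and their levels are given both singly and as a sum.

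**Figure D1:**
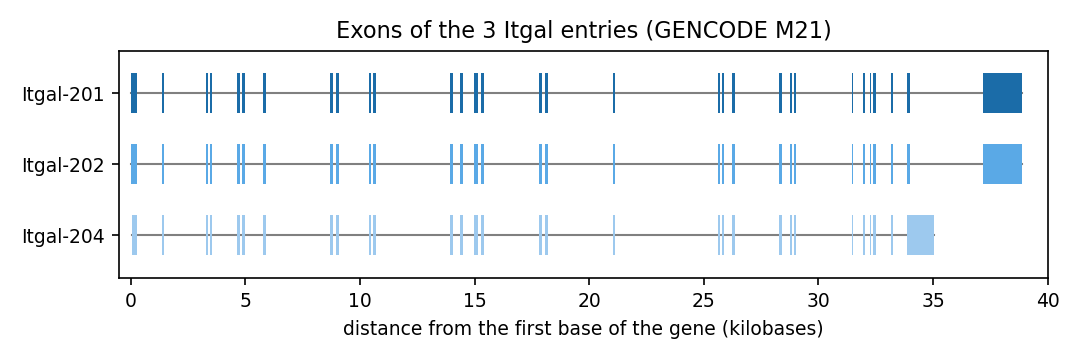
Exons (boxes) of the 3 Itgal entries, drawn to scale against the distance from the first base of the gene in kilobases. Itgal-201 and Itgal-202 look alike at this scale, and Itgal-204 ends earlier, in an extension of exon 30.

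RefSeq's promoter table held 1 of the 3 members, Itgax. Its 250 bases before the start site (GRCm38.p6, plus strand, chr7:128129300-128129549) are printed below.
Itgax: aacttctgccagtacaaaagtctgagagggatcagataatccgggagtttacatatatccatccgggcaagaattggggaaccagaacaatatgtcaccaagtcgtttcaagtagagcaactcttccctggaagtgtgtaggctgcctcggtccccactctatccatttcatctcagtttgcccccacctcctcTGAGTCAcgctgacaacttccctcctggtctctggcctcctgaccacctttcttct

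The capitals mark the match to the AP-1 motif TGAGTCA, at positions -56 to -50 from the start site. Another 4 motifs were searched on both strands without a match in this window: the interferon-gamma-activated site TTCNNNGAA, the core of the interferon-stimulated response element, the PU.1 core GAGGAA and the RUNX motif TGTGGT. Of the 32851 promoter windows of this length, 4.46% hold the AP-1 letters, 7.02% the TTCNNNGAA letters, 2.98% that core, 23.3% GAGGAA and 14.0% TGTGGT. A match is a description of letters, not of binding.

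Summed over its entries, Itgal lay above Itgax in all 6 groups and above Itgb3 in the 5 where that gene has a level. Singly, its highest entry was at 58.4 rebuilt FPKM against 58.6 for Itgax with both agents. The level of Itgal separated the groups with interferon-gamma from those without. Itgal-201 stood at 1.87 rebuilt FPKM in untreated parental cells and at 1.76 in parental cells with doxycycline. In construct cells it was 1.15 untreated, 2.54 with doxycycline, 23.1 with interferon-gamma and 42.9 with both. The 4 groups without interferon-gamma lay between 1.15 and 2.54, far under the other 2.

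Itgal-202, the entry with the highest level, gave 2.87 and 3.09 rebuilt FPKM in untreated and doxycycline-treated parental cells. Its construct values were 2.48 untreated, 4.76 with doxycycline, 34.1 with interferon-gamma and 58.4 with both agents. Itgal-204 was the lowest entry throughout, at 0.569 and 0.777 rebuilt FPKM in untreated and doxycycline-treated parental cells. In construct cells it gave 0.523, 0.685, 8.56 and 10.2 rebuilt FPKM in the same order. In all 3 entries untreated construct cells were lowest and construct cells with both agents highest, and the only step between neighbouring groups in the order that was called is the one up to interferon-gamma alone.

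Summed over the entries, Itgal stood at 5.31 rebuilt FPKM in untreated and 5.63 in doxycycline-treated parental cells. The sums in construct cells were 4.15 untreated, 7.99 with doxycycline, 65.8 with interferon-gamma and 111 with both. Itgal-202 made up between 51.8% (interferon-gamma alone) and 59.7% (untreated construct cells) of the sum. The share of Itgal-201 ran from 27.7% in untreated construct cells to 38.5% with both agents, and that of Itgal-204 from 8.58% to 13.8%. These shares have no error, since the table gives none.

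**Figure D2:**
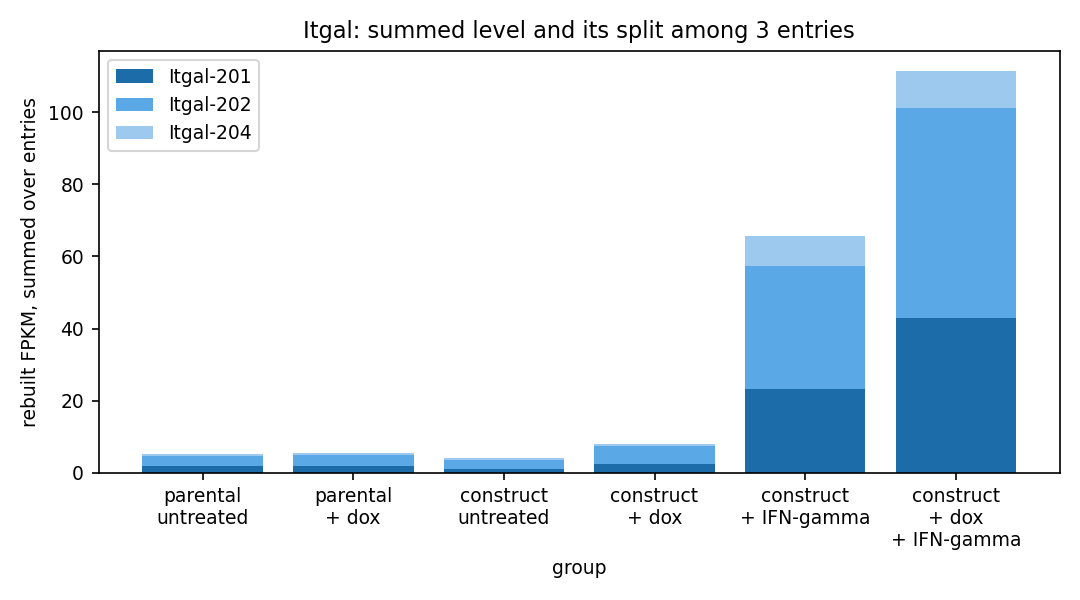
Summed rebuilt FPKM of Itgal in the 6 groups (bars), divided into its 3 entries. The 4 groups without interferon-gamma lie between 4.15 and 7.99, and the other 2 at 65.8 and 111.

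Itgax rose along the same axis from a lower base. It was 1.35 rebuilt FPKM in untreated parental cells and 1.54 with doxycycline. In construct cells it was 2.04 untreated, 3.73 with doxycycline, 24.2 with interferon-gamma and 58.6 with both agents. From lowest to highest this is a 43.5-fold range, and it was called, as were the last 2 steps of the order, to interferon-gamma alone and from there to both agents. The first 3 steps, among the groups without interferon-gamma, were not called.

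The balance between the 2 alpha chains can be read from these levels, which are per transcript length. Summed Itgal was 3.94 times Itgax in untreated parental cells and 3.65 times with doxycycline. In construct cells the ratio was 2.04 untreated, 2.14 with doxycycline, 2.72 with interferon-gamma and 1.90 with both agents. Parental ratios lay above all 4 construct ratios, a difference that was not tested.

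Itgb3 was scarce in every group in which it could be rebuilt, below 1 FPKM throughout, and its order differed from that of the alpha chains. It stood at 0.0729 rebuilt FPKM in untreated and 0.0758 in doxycycline-treated parental cells. In construct cells it was 0.559 with doxycycline, 0.212 with interferon-gamma and 0.0890 with both agents. Construct cells with doxycycline were highest, and the 2 parental groups and construct cells with both agents lay close together at the bottom. No row sets Itgb3 in untreated construct cells beside another group, so that level is not given here. The deposited sums have 2 decimals, and levels of Itgb3 rebuilt from different rows differed by up to 1.27%, against at most 0.125% for Itgal and Itgax.

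**Figure D3:**
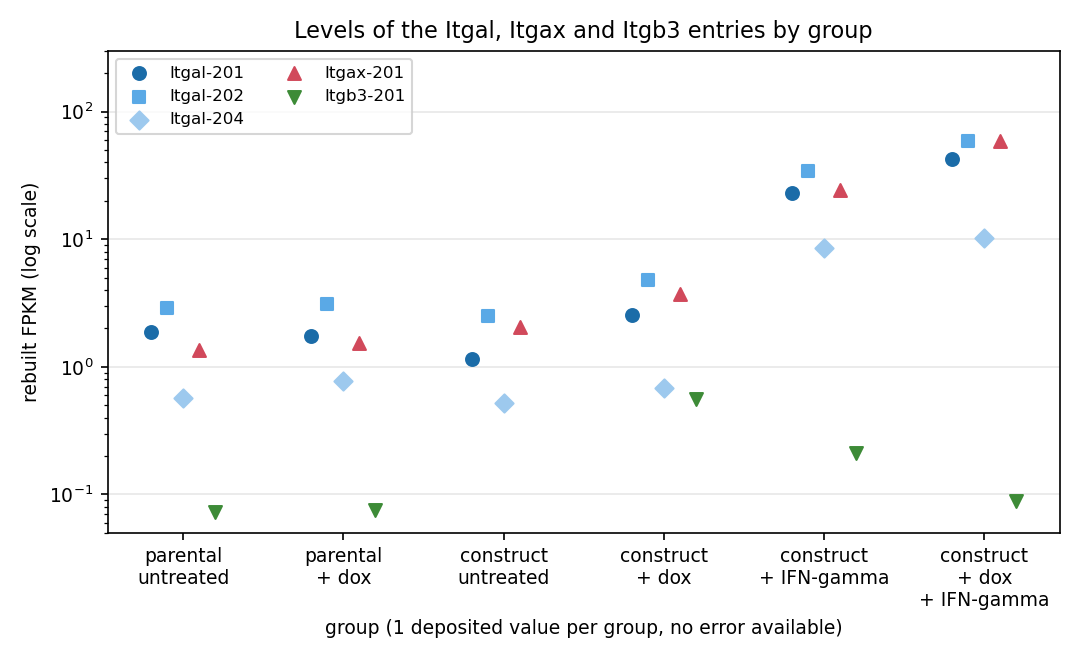
Rebuilt FPKM (log scale) of each of the 5 entries in the 6 groups, 1 point per entry and group and no error bars. Itgal and Itgax are highest in the 2 groups with interferon-gamma, and Itgb3, which has no point in untreated construct cells, is highest in construct cells with doxycycline at 0.559.

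Interferon-gamma without induction asks what the cytokine alone does in construct cells. Itgal and Itgax were both called higher, through 4 entries, where 24.4% of all 7315 listed entries were called higher and 21.5% lower. These percentages are shares of entries listed in any pair, because the number of entries the authors tested is not given in the sources used here. Itgal-201 rose 20.1-fold, Itgal-204 16.4-fold and Itgal-202 13.7-fold in the authors' deposited table, each with a Cuffdiff q of 3.9e-04. Itgax rose 11.9-fold in the authors' deposited table (Cuffdiff q = 3.9e-04). The median fold of entries called higher was 3.15, and 5.88% of them had a larger fold than Itgal-201 and 10.2% a larger one than Itgax. Levels were also rescaled to centre log2 ratios on 0, over the 3846 entries with a level in both groups and at least 1 FPKM in one. This moved the log2 ratios by 0.65, to folds of 12.8, 10.5 and 8.77 for these Itgal entries and 7.57 for Itgax. Each entry so used was called in some pair, so the shift cannot be told apart from a response that these entries share. The q of 3.9e-04 is the smallest in the table and is carried by 71.8% of the rows used. Among them are 36 of the 40 rows of these genes, so it does not rank them.

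With CITED1 induced in both arms, interferon-gamma was followed by a rise of both alpha chain genes and a fall of Itgb3. Entries called higher were 33.8% of those listed and entries called lower 30.1%. In the authors' deposited table Itgal-201 rose 16.9-fold, Itgal-204 14.9-fold and Itgal-202 12.3-fold (Cuffdiff q = 3.9e-04 for each). Itgax rose 15.7-fold in the same deposited table by the authors, from 3.73 to 58.6 rebuilt FPKM (Cuffdiff q = 3.9e-04). Itgb3 fell 6.3-fold in the authors' deposited table (Cuffdiff q = 3.9e-04), from 0.559 to 0.0890 rebuilt FPKM. The call of Itgb3 is lost at a minimum of 1 FPKM and with 1 FPKM added to both levels, which leaves a fall of 0.52 on the log2 scale. Rescaling moved log2 ratios by 1.02 here, to folds of 8.35, 7.36 and 6.05 for the Itgal entries and 7.77 for Itgax, and the log2 ratio of Itgb3 from -2.66 to -3.67.

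Set side by side, the interferon-gamma fold of summed Itgal was 15.8 without and 14.0 with induction, and that of Itgax 11.9 and 15.7. The ratio of the fold with to the fold without induction was 0.881 for summed Itgal and 1.33 for Itgax. After rescaling it was 0.682 for summed Itgal and 1.03 for Itgax. The shifts used are medians over entries that were themselves called in some pair. Rescaling therefore cannot decide whether the difference in the response of Itgax is kept. Whether either ratio differs from 1 was not tested, since the table has no values per sample.

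Induction of CITED1 in unstimulated construct cells is the comparison in which few entries changed, with 0.164% of those listed called higher. Itgal was the member called, through Itgal-201 alone, which rose 2.21-fold in the authors' deposited table (Cuffdiff q = 0.0024). It was 11th by fold among the 12 entries called higher, whose median fold was 2.69. Itgal-202 had 2.48 and 4.76 rebuilt FPKM, a ratio of 1.92, and Itgal-204 0.523 and 0.685, a ratio of 1.31, and neither was called. The sum over the entries was 1.92 times higher with doxycycline, just under the 2-fold limit, so the call is not kept when the entries are summed. Itgax had 2.04 and 3.73 rebuilt FPKM, a ratio of 1.83, without a call.

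A further rise of Itgax followed CITED1 induction under interferon-gamma. Entries called higher were 6.75% of those listed and entries called lower 5.21%. Itgax rose 2.42-fold in the authors' deposited table (Cuffdiff q = 3.9e-04), from 24.2 to 58.6 rebuilt FPKM, close to the median fold of 2.54 among entries called higher. Itgal was not called: summed over its entries it was 65.8 and 111 rebuilt FPKM, a ratio of 1.69, with single ratios of 1.85 for Itgal-201, 1.71 for Itgal-202 and 1.19 for Itgal-204. Itgb3 had 0.212 and 0.0890 rebuilt FPKM and no row. The sum of that pair, 0.301, lies under 0.55, the smallest summed FPKM in the rows used. Doxycycline was given in the induced arm only, and doxycycline with interferon-gamma in parental cells was not analysed here, so the inducer and CITED1 cannot be told apart in this comparison.

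Doxycycline in parental cells bears on the inducer itself without interferon-gamma. None of the 5 entries has a row there, where 0.670% of listed entries were called in either direction. Itgal summed to 5.31 and 5.63 rebuilt FPKM, a ratio of 1.06. Itgax had 1.35 and 1.54, a ratio of 1.14, and Itgb3 0.0729 and 0.0758, a ratio of 1.04. For Itgb3 the sum of the pair, 0.149, lies under 0.55, the smallest summed FPKM in the rows used.

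The construct line was also compared with parental cells. With doxycycline in both, only construct cells carry the inducible CITED1, so the line and the induction cannot be told apart in that pair. There Itgax and Itgb3 were called higher in construct cells, where 2.02% of listed entries were called higher. Itgax was 2.42-fold higher in the authors' deposited table (Cuffdiff q = 3.9e-04), from 1.54 to 3.73 rebuilt FPKM. Itgb3 was 7.44-fold higher in the authors' deposited table (Cuffdiff q = 0.015), the 7th largest rise of 148 entries, from 0.0758 to 0.564 rebuilt FPKM in that row. The call of Itgb3 is lost at a q of 0.01 or less, at a minimum of 1 FPKM, and with 1 FPKM added, which leaves a log2 difference of 0.54. Of the 11 osteoclast markers listed, 5 were called higher in this pair, Itgb3 and Acp5, Atp6v0d2, Dcstamp and Nfatc1, and the latter 4 were also called higher without doxycycline. Acp5, the gene of tartrate-resistant acid phosphatase, had 0.473 and 4.27 rebuilt FPKM in parental and construct cells with doxycycline, and their part in the value of Itgb3 was not tested. Itgal summed to 5.63 and 7.99 rebuilt FPKM, a ratio of 1.42, without a call.

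Without doxycycline, the 3 genes have no row between construct and parental cells, where 1.45% of listed entries were called higher. Itgax had 1.35 rebuilt FPKM in parental and 2.04 in construct cells, a ratio of 1.51. Summed Itgal was lower in construct cells, at 4.15 against 5.31 rebuilt FPKM, a ratio of 0.782. The other 8 pairs of groups differ in more than 1 factor, and their rows served to rebuild levels.

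The rest of the integrin family was examined as a list of 27 subunit genes, of which 9 have a row in some pair and 18 have none. Itgb2, whose product is the partner of both the alpha L and alpha X chains, is among those without a row, and so is Itgad, the next integrin gene downstream of Itgax. With interferon-gamma alone 4 subunit genes were called higher and 1 lower, and with induction in both arms 4 were higher and 4 lower. Over all listed entries 24.4% were higher and 21.5% lower in the first comparison and 33.8% and 30.1% in the second. Every listed entry has a row in some pair, so these shares belong beside the 9 genes with a row, not the 27. Whether the counts exceed the shares was not tested. After rescaling 3 subunit genes were higher and 1 lower, and 3 higher and 4 lower, since Itgav then fell short of 2-fold. Beside Itgal and Itgax, Itga5, the alpha chain of the fibronectin receptor, rose from 20.8 to 75.6 rebuilt FPKM with interferon-gamma alone and from 14.8 to 120 with induction.

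The partners of the members did not all move with them. Itgav, whose product pairs with beta 3, rose 2.34-fold without and 2.31-fold with induction in the authors' deposited table. After rescaling these folds of Itgav were 1.49 and 1.14. Itgb3 fell in the second of these comparisons, at levels below 1 FPKM. Itgb5, whose product also pairs with alpha V, fell with interferon-gamma alone from 18.0 to 5.67 rebuilt FPKM (entry ENSMUST00000115028). With induction it fell 11.8-fold in the authors' deposited table, and between stimulated cells without and with induction 3.27-fold. Itgam, which encodes the alpha M chain of complement receptor 3 and is the next integrin gene upstream of Itgax, fell 2.19-fold with interferon-gamma under induction in the authors' deposited table, from 44.0 to 20.1 rebuilt FPKM. It overlaps another annotated gene, Gm49368, so its level is uncertain. Itgax and Itgam were thus called in opposite directions in that comparison.

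Between construct and parental cells the subunits called were all higher. Over all entries, 106 of the 269 called were higher without doxycycline and 148 of the 343 called with it. Itgb7, a beta chain of gut-homing integrins, rose 3.01-fold without doxycycline and 2.4-fold with it in the authors' deposited table. Itgb4, the beta chain of the laminin receptor of epithelia, rose from 0.149 to 0.561 rebuilt FPKM without doxycycline and from 0.186 to 0.534 with it. With Itgax and Itgb3 this made 2 subunit genes higher without and 4 with doxycycline, against 1.45% and 2.02% of all listed entries. At a minimum of 1 FPKM the counts of subunit genes were 1 and 2.

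**Figure D4:**
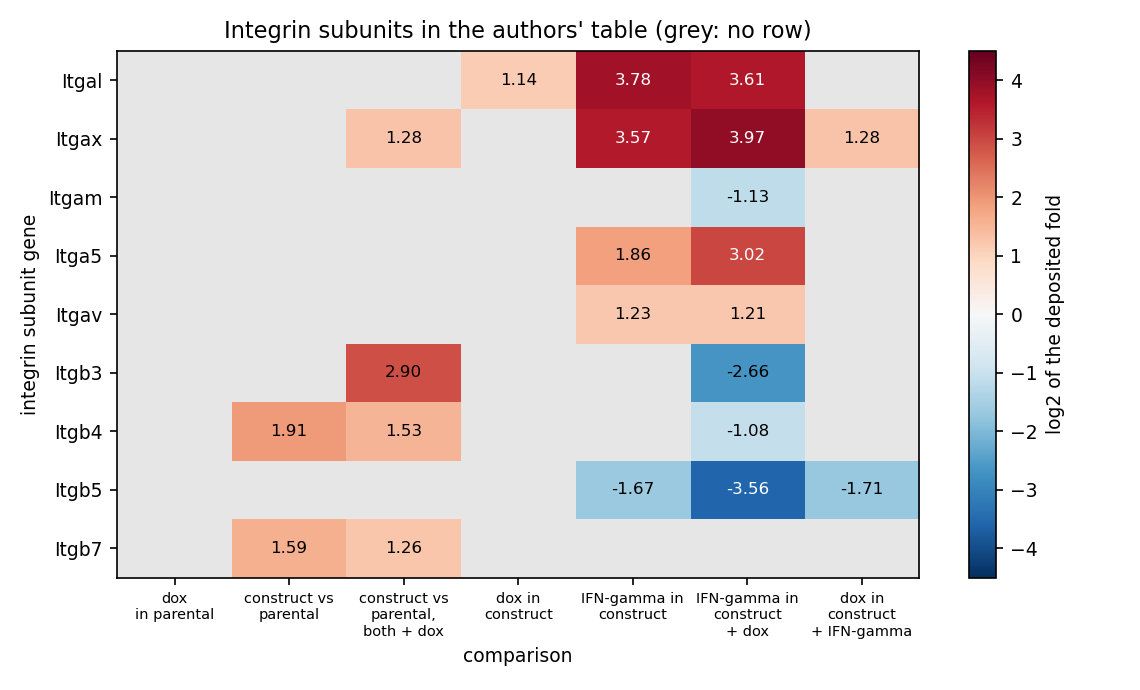
Log2 of the deposited fold for the 9 integrin subunit genes that have a row, in the 7 comparisons of 1 factor, using for each gene its most abundant called entry. Red is higher and blue lower in the second group, and grey cells have no row. Itgal and Itgax carry the largest rises with interferon-gamma, and Itgb5 the largest fall.

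Ligands of the beta 2 and beta 3 integrins formed a list of 27 genes, of which 7 have a row. With interferon-gamma alone 2 were higher and 3 lower, and with induction 1 was higher and 2 lower, against 24.4% and 21.5%, and 33.8% and 30.1%, of all listed entries. After rescaling the first pair of counts was 1 and 3. C3, whose fragment iC3b binds complement receptor 4, rose from 5.26 to 17.7 rebuilt FPKM without induction and from 7.94 to 46.8 with it. Icam2, a ligand of LFA-1, fell from 2.83 to 0.756 rebuilt FPKM with interferon-gamma alone. The other called ligands without induction were Edil3, which was higher, and Vwf and Mfge8, which were lower. Between stimulated cells with and without induction C3 rose 2.64-fold in the authors' deposited table, whereas L1cam and Edil3 were lower there. Icam1, the main ligand of LFA-1, has no row.

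Genes that activate integrins or link them to the cytoskeleton made up a list of 46, of which 21 have a row. With interferon-gamma alone 8 were called higher and 1 lower, and with induction 13 higher and 2 lower. The shares of all listed entries were 24.4% higher and 21.5% lower, and 33.8% and 30.1%. Those entries all have a row in some pair, so the counts are to be read out of the 21 genes with a row, not the 46. Whether the counts exceed the shares was not tested. After rescaling the counts were 3 and 1 without, and 5 and 2 with induction, and Plaur and Lims2, named below, were then under 2-fold without induction. The kinase gene Src rose from 0.764 to 6.38 rebuilt FPKM without and from 1.08 to 12.4 with induction. The urokinase receptor gene Plaur rose from 20.7 to 63.5 and from 18.5 to 105 rebuilt FPKM. Cd47, which encodes a membrane protein that associates with beta 3 integrins, rose from 20.2 to 80.8 and from 19.8 to 113 rebuilt FPKM in its entry ENSMUST00000230281. Tln2, a talin gene, fell with interferon-gamma alone from 0.919 to 0.101 rebuilt FPKM. The kinase gene Syk and the parvin gene Parvb fell with interferon-gamma under induction.

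Lims2, which encodes an adaptor of the integrin-linked kinase complex, was the only member of that list called when CITED1 was induced in unstimulated cells. The list has 21 genes with a row. In that comparison 25 of the 7315 listed entries were called, 12 of them higher. Lims2 fell from 7.01 to 3.04 rebuilt FPKM, opposite to Itgal-201. It was also 2.8-fold lower in construct than in parental cells with doxycycline in the authors' deposited table. With interferon-gamma it rose from 7.01 to 19.6 rebuilt FPKM without and from 3.04 to 15.2 with induction.

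Markers of the cell types that use these integrins were listed beside the members. Of the 10 dendritic cell markers 5 have a row, and all 5, Itgax included, were called higher with interferon-gamma alone, where 24.4% of all listed entries were. At a q of 0.01 or less 3 were called, and 4 after rescaling, at a minimum of 1 FPKM or with 1 FPKM added. With induction 2 of the 5 with a row, Itgax and Xcr1, were called higher, where 33.8% of all listed entries were. With interferon-gamma alone Xcr1, a chemokine receptor gene, went from 0.0430 to 6.61 rebuilt FPKM and Zbtb46, a transcription factor gene, from 0.183 to 0.577. Of the 11 osteoclast markers 6 have a row. With interferon-gamma alone 4 of these, Acp5, Atp6v0d2, Ctsk and Nfatc1, were called lower and 1, Dcstamp, higher, against 21.5% and 24.4% of all listed entries. Itgb3 has no level in untreated construct cells and so no fold in that comparison. With induction 5 of the 6, Itgb3 included, were called lower with interferon-gamma and 1, Dcstamp, higher, against 30.1% and 33.8% of all listed entries. Acp5 fell there from 4.26 to 0.767 rebuilt FPKM and Atp6v0d2, a proton pump subunit gene, from 14.0 to 2.68.

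Of the 10 macrophage markers 4 have a row, so the line could be checked against these alone. Adgre1, which encodes F4/80, stood at 28.6 and 12.2 rebuilt FPKM in untreated parental and construct cells, a fall that was called. With interferon-gamma under induction 2 of these markers were higher, Fcgr1 and Spi1, and 2 lower, Adgre1 and Itgam. The shares of all listed entries there were 33.8% higher and 30.1% lower. Fcgr1, a gene of an Fc receptor, went from 15.5 to 274 rebuilt FPKM in its entry ENSMUST00000029748, Spi1 from 151 to 350 and Adgre1 from 13.9 to 5.03. After rescaling the log2 ratio of Spi1 was 0.19, so its call was lost. With interferon-gamma alone Fcgr1 was the marker called, and it was higher, as were 24.4% of all listed entries. Of the 12 lymphocyte markers, Itgal is the 1 gene with a row. What part any of these markers has in the values of the members was not tested.

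The pattern of each member was compared with that of the other entries that were called in exactly the same pairs of groups and the same directions. Likeness was the mean absolute difference of the log2 folds over those pairs, given here as a description because the pairs share samples. Itgal-202 and Itgal-204 were each called in 8 pairs, all of them a group with interferon-gamma against one without, a set of calls found in 827 other entries. Nearest to Itgal-202 were Gca, with a difference of 0.21, then Snx10, Sp110, Egr1 and Nlrc5, with 0.29 for the fifth. Gca, which encodes the calcium-binding protein grancalcin, went from 2.87 rebuilt FPKM in untreated construct cells to 25.0 with interferon-gamma and 47.5 with both agents. Nearest to Itgal-204 were Tnfsf18, with 0.22, then Dgka, Zfp36, Snx10 and Bst1, with 0.27 for the fifth.

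Itgal-201 was called in 9 pairs and Itgax in 11, and 0 other entries of the 7315 had either of these sets of calls. Itgal-201 adds the rise with doxycycline in unstimulated construct cells to the 8 pairs of the other Itgal entries. That rise was 2.21-fold, and Itgal-202 had a ratio of 1.92 in the same pair. The set of Itgal-201 thus rests on a fold near the 2-fold limit and on an uncertain division of fragments. Itgax adds to those 8 pairs the rise of construct cells with doxycycline over both parental groups and the rise with doxycycline under interferon-gamma. These rises were 2.77-fold over untreated and 2.42-fold over doxycycline-treated parental cells, and 2.42-fold under interferon-gamma. With doxycycline in unstimulated construct cells Itgax had a ratio of 1.83 and no call. The set of Itgax thus also depends on the 2-fold limit. Itgb3 was called in 4 pairs, 2 higher and 2 lower, and the named gene with the same calls was Six5, a homeobox gene. Its folds differed from those of Itgb3 by a mean of 0.77 on the log2 scale, so the likeness is loose.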

How the data were processed

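Libraries were stranded and made from poly(A) RNA, per the labels' protocols. Cuffdiff 2.2.1, STAR 2.5.3a, edgeR, featureCounts and FastQC 0.11.5 are listed, with no role, per the submitters' processing notes. The authors' deposited table gives per pair of groups a fold as a linear ratio, 1 total FPKM and 1 q-value. For library scaling, the tests behind q, genome build and annotation, each is not given in the sources used here. Of 112230 rows, 77406 name a group outside the 6 and were not used. Dividing a total by (1 + fold) gave the lower level, multiplying this by the fold gave the higher, and medians were taken over rows. Where several rows gave a level of 1 FPKM or more, these were within 0.756% of each other.

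No test was added, since the table has no values per sample. The calls are the authors' Cuffdiff calls. Fragments may be shared among the Itgal entries. Text names the members, up to 6 called genes per list and comparison, and up to 5 nearest patterns over at least 4 pairs. The members and the 7 lists (139 genes) were chosen with earlier results of these data known. Transcripts were matched to GENCODE M21 by identifier. Python 3.11.15 and pandas 2.3.3 were used, and the rebuilding was tested on simulated data. The values of 1 listed gene are not reported here.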

Additional observations from a re-analysis of the deposited data

How the results depend on the processing

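The choices varied were the q limit (0.01), a least level of 1 FPKM in one of both groups, a pseudocount of 1 FPKM with at least 1.5-fold, rescaling to a median log2 ratio of 0, and only the highest entry of each gene. Summing the Itgal entries was added after the data were examined. Of 35 counts of called members 31 kept within 1.5 times. Each setting was applied to rows already called, so a count could stay or fall but not rise. The count was 0 from the start for doxycycline in parental cells and for construct against parental cells without doxycycline, and could not move there. With doxycycline in both lines, 1 member in place of 2 was called at the stricter q, at the minimum level and with the pseudocount, and the log2 difference of Itgb3 was 0.54 with the pseudocount. For interferon-gamma with induction that of Itgb3 was -0.52. With only the highest entry 0 members, and 0 integrin subunits, were called for induction in unstimulated cells, by the authors' Cuffdiff q, since Itgal-201 is not the highest entry (no unadjusted p is in the table), and summed Itgal gave 0.94. In the 4 entries all 16 rescaled or pseudocount log2 folds of Itgal and Itgax in the comparisons of interferon-gamma kept their call, with the rescaled folds smaller by more than 1.5 times. Integrin subunits called between construct and parental cells were 1 in place of 2 without doxycycline, and 2 in place of 4 with it, at the minimum level and with the pseudocount. Integrin adaptors called after rescaling were 4 in place of 9 without and 7 in place of 15 with induction, and ligands called for induction in stimulated cells 1 in place of 3 with only the highest entry. No paired analysis was possible because the table has no values per sample, and for that reason leaving out replicates was not run. Depth per sample is unknown, so no precision can be given for the low levels of Itgb3.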
